A study of Mus musculus with 12 samples.

Results

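The genes described here are 10 that take part in, or mark, the epithelial to mesenchymal transition (EMT) of gastrulation: Snai1, Twist1, Zeb2, Cdh1, Cldn6, Epcam, Vim, Fn1, Cdh2 and Cdh11. They were chosen by their gene name in the deposited array table, and every probe under those names was taken, which gave 21 of 30344 probes and 10 of 19060 gene names. A probe was kept for testing if its detection p-value, low where a probe lies above background, was under 0.05 on at least 3 of the 12 arrays. That left 16 of the 21 probes, with at least 1 for each of the 10 genes, among 17041 kept probes in all.

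Total RNA was measured on 12 Illumina bead arrays, each from a pool of 5 embryo regions, in 4 groups of 3 arrays. Control embryos (Lhx1+/flox; Meox2+/Cre) and Lhx1epiCKO embryos (Lhx1-/flox; Meox2+/Cre) were taken at E7.75, spanning early bud to early head-fold stages, and each was divided into an anterior and a posterior region. LHX1 is a LIM homeobox transcription factor needed for head formation, and Cre made from the Meox2 locus acts in the epiblast, the layer that forms the embryo proper. All 4 groups carry that Cre and 1 conditional Lhx1 allele, so control epiblast keeps 1 wild-type allele after recombination. The Lhx1- allele of Lhx1epiCKO embryos is also present in tissue outside the epiblast. The tissue label of all 12 samples is embryonic head, posterior regions included, while the region label separates them.

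At gastrulation, epiblast cells at the primitive streak lose their epithelial junctions, cross the basement membrane and leave as mesenchymal cells that form mesoderm and endoderm. FGF signalling at the streak switches on Snai1, whose zinc-finger protein represses the E-cadherin gene Cdh1, and cells then take on N-cadherin (Cdh2), vimentin (Vim) and fibronectin (Fn1). TWIST1 and ZEB2 repress epithelial genes in other EMTs, and Twist1 is best known at this age in head mesenchyme. E-cadherin, claudin 6 (Cldn6) and EPCAM belong to epithelial contacts. The visceral endoderm that wraps the embryo is an epithelium too.

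Snail and Zeb proteins bind the 6-letter box CACCTG, or CAGGTG read on the other strand. The RefSeq promoter table (build GRCm38.p6) holds a window for 6 of the 10 genes, namely Snai1, Twist1, Zeb2, Cldn6, Epcam and Vim. In the 250 bases before the start, the box in either orientation lay in the windows of 3 genes, Snai1, Cldn6 and Epcam. Of all 27025 genes with windows of that length, 19.4% hold it in at least 1. The 6 genes have 9 windows, as Zeb2 has 4. The windows of Vim, Twist1 and Zeb2 did not hold these letters. The 3 windows with a box are shown because they place it in a repressor gene and in the promoters of a pair of junction genes, with the box in capitals.
Snai1 promoter, chr2:167537945-167538194, plus strand: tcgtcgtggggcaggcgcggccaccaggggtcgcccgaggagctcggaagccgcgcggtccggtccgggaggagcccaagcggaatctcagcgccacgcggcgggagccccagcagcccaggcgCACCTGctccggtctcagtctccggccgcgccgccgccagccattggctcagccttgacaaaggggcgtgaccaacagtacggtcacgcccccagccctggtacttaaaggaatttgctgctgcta
Cldn6 promoter, chr17:23679115-23679347, plus strand: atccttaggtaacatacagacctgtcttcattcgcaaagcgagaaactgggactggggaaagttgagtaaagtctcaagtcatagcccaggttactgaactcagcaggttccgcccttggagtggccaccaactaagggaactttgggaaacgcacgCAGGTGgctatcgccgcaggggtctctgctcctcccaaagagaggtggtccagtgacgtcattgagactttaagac
Epcam promoter, chr17:87635729-87635978, plus strand: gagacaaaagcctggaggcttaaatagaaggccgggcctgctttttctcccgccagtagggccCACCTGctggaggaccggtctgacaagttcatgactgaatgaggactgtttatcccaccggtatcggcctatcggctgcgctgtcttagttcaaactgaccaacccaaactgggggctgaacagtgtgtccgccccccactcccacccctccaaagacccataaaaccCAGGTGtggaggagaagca
The Cldn6 stretch is 233 bases long, as it stops at an earlier annotated start, 17 bases short of the start that the table uses. Counted back from the table's start, the box begins at -126 for Snai1 and at -93 for Cldn6. For Epcam it begins at -187 as CACCTG and at -19 as CAGGTG. The matches describe letters only, and no binding was measured.

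Anterior arrays detected 15416 to 16238 probes and posterior arrays 14243 to 14869, without overlap, and array medians were 6.81 to 6.83 on the log2 scale. The dimmest detected signal was 6.77 to 6.81 on anterior and 6.83 to 6.87 on posterior arrays, and the part of this in the regional differences was not tested. The only Lhx1 probe read 8.13 to 8.44 on anterior control arrays and 6.65 to 7.09 on anterior Lhx1epiCKO arrays. In posterior regions it read 6.85 to 7.30 on Lhx1epiCKO arrays and 8.54 and 8.35 on control replicates 1 and 3. Replicate 2 of posterior control stood at 6.90, against its label. Posterior Lhx1epiCKO replicate 3 stood apart from its group: 640 probes lay more than 1 log2 unit below the mean of the other arrays of that group, and 139 lay above. Its summed level of visceral endoderm markers was the lowest of the 12 arrays, and Apoa1, one of those markers, chosen after its values were seen, read 7.20 there against 13.60 and 13.70 on the other posterior Lhx1epiCKO arrays. Both arrays stayed in the fit, and the values that moved most without them are given beside the results.

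**Figure D1:**
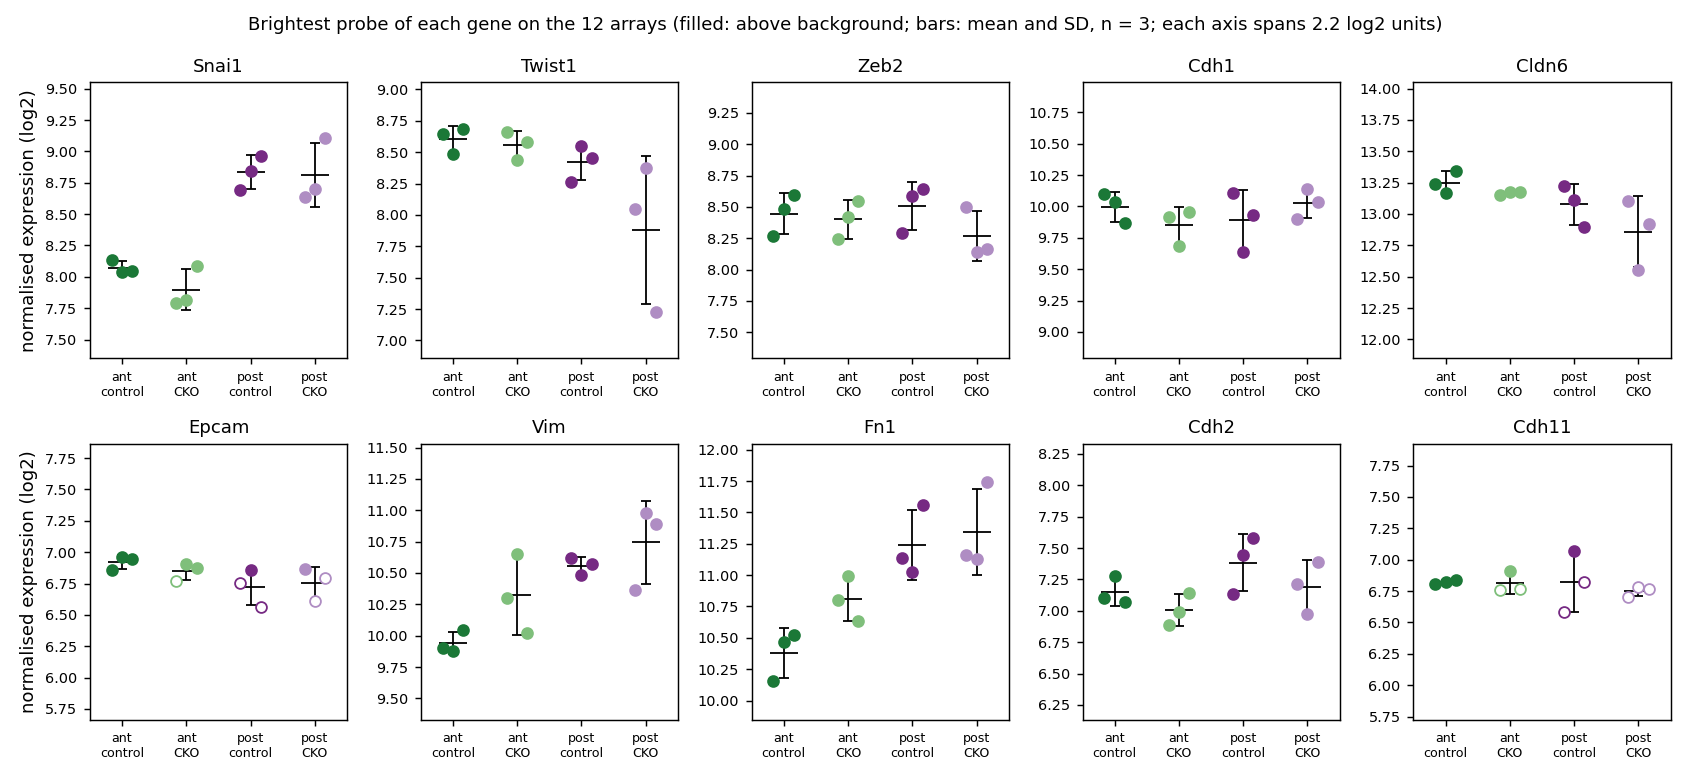
Normalised log2 expression (vertical axis) of the brightest probe of each of the 10 genes on the 12 arrays, by group (horizontal axis, ant for anterior and post for posterior). Points are arrays, filled where above background, and bars are the mean and SD of 3 arrays. Every axis spans the same number of log2 units; Snai1, Vim and Fn1 lie higher in posterior than in anterior control regions, and Epcam and Cdh11 lie at the edge of detection.

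The regional comparison within control embryos asks how the anterior region differs from the posterior region, which holds the primitive streak. Of the 10 genes, 2 passed the test, and both were lower in anterior regions: Snai1, by 0.76 ± 0.14 in log2 units (SE, 3 arrays in each group), and Fn1, by 0.86 ± 0.19. No epithelial gene of the 10 passed in either direction. The 2 called probes are 2 of the 16 kept, against 3.01% of all kept probes, 1.65% lower in anterior control regions and 1.36% higher. Probes whose groups did not overlap numbered 3 of 16 in the lower direction (Snai1, Fn1 and Vim) and 0 of 16 in the higher direction, against 9.33% and 13.3% of all kept probes. The median difference over the 16 probes was -0.10, against 0.02 over all 17041.

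Snai1 encodes the zinc-finger repressor that starts the transition at the streak. Its brighter probe, ILMN_2904765, read 8.13, 8.04 and 8.05 in anterior control regions. In posterior control regions the values were 8.69, 8.85 and 8.96. Every posterior control value lay above every anterior one. The fitted difference corresponds to a level 1.69-fold lower in anterior regions, with a 95% interval on the log2 scale from -1.05 to -0.47 and an adjusted p of 0.00689 (limma, Benjamini-Hochberg over all kept probes).

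Lhx1epiCKO embryos had the same order for this probe, with 7.79, 7.81 and 8.09 in anterior regions. Their posterior regions read 8.63, 8.70 and 9.11. The groups did not overlap, and Snai1 was lower in anterior regions by 0.92 ± 0.14 (adjusted p = 0.00341 with limma). This was the 1 called probe of the 16 in that comparison, against 1.27% of all kept probes, 0.851% lower and 0.417% higher. Leaving out posterior Lhx1epiCKO replicate 3, where the highest value lay, gave a difference of -0.77 (adjusted p = 0.00146). With only the 6 Lhx1epiCKO arrays in the fit the difference was -0.92 and no longer passed (adjusted p = 0.0835).

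A second Snai1 probe, ILMN_1241355, did not show this pattern. It was above background on 6 of the 12 arrays and read between 6.62 and 6.92 on 11 of them. The remaining array, posterior Lhx1epiCKO replicate 3, read 8.07. Anterior and posterior regions overlapped, and the regional difference was -0.10 in control embryos (adjusted p = 0.947) and -0.37 in Lhx1epiCKO embryos (adjusted p = 0.593). With the mean of both Snai1 probes in place of single probes, the regional difference was -0.43 in control embryos (adjusted p = 0.307) and -0.64 in Lhx1epiCKO embryos (adjusted p = 0.130), so neither passed.

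**Figure D2:**
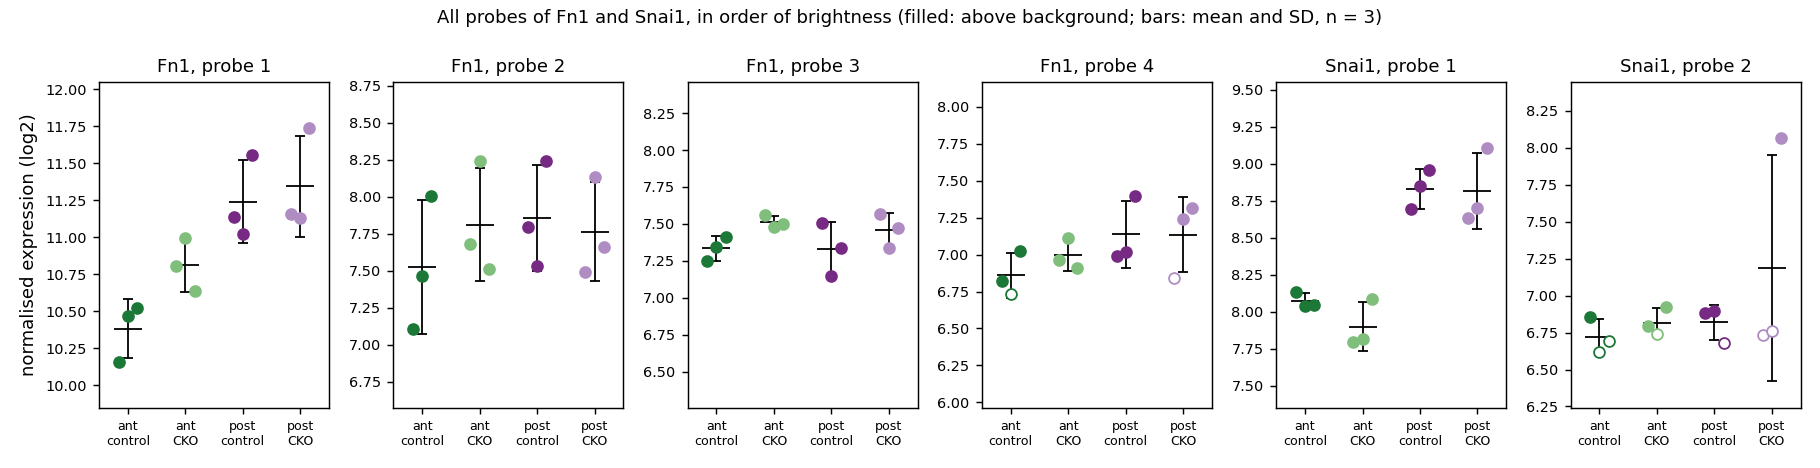
Normalised log2 expression (vertical axis) of the 4 Fn1 probes and the 2 Snai1 probes in order of brightness, by group (horizontal axis). Points are arrays, filled where above background, and bars are the mean and SD of 3 arrays; the brightest probe of each gene separates anterior from posterior control regions, and Snai1 probe 2 is set apart by 1 array at 8.07.

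Between genotypes, Snai1 did not pass in either region. The brighter probe was 0.17 lower in anterior Lhx1epiCKO regions, with an interval from -0.47 to 0.12, and the groups overlapped. In posterior regions the difference was -0.02, with an interval from -0.31 to 0.27. The regional difference was -0.76 in control and -0.92 in Lhx1epiCKO embryos, and the test of that change gave -0.15 ± 0.19 (adjusted p = 0.981). Without posterior Lhx1epiCKO replicate 3 that change was -0.0081, and the posterior genotype difference was -0.17.

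Between regions, most primitive streak markers had the direction of the brighter Snai1 probe, with 1 of 9 above 0 in each genotype. The 9 markers of streak and nascent mesoderm were all kept, and their summed linear level was 2976 to 3757 on anterior control arrays and 14475 to 17032 on posterior control arrays. On Lhx1epiCKO arrays it was 3379 to 6608 in anterior and 11319 to 17003 in posterior regions. Of the 9 markers, 5 were called lower in anterior control regions and 4 in anterior Lhx1epiCKO regions, and each was above background in every group. Between genotypes in anterior regions the direction was not shared. There 6 of the 9 markers lay above 0, with a median of 0.46 and 0 called, while the brighter Snai1 probe stood at -0.17. The part of these markers in the Snai1 differences was not tested. In bulk regions, fewer cells of a type and less RNA per cell cannot be told apart.

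Fn1 encodes fibronectin, the matrix protein on which newly formed mesoderm migrates. Its brightest probe, ILMN_2595714, read 10.15, 10.47 and 10.52 in anterior control regions. The posterior control regions read 11.14, 11.02 and 11.56. These groups did not overlap, and the level was 1.81-fold lower in anterior regions (difference -0.86, interval -1.26 to -0.46, adjusted p = 0.0230 with limma). The call was lost without any 1 of anterior control replicates 1, 2 and 3 or posterior control replicates 1 and 3, at differences of -0.74, -0.90, -0.93, -0.91 and -0.70 with adjusted p from 0.0509 to 0.122. It held without posterior control replicate 2, at -0.97 (adjusted p = 0.0372).

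In Lhx1epiCKO embryos the same Fn1 probe read 10.81, 10.99 and 10.64 in anterior regions. Posterior regions read 11.16, 11.13 and 11.74. Again the groups did not overlap, but the difference of -0.53 ± 0.19 did not pass (adjusted p = 0.254), and it was -0.33 without posterior Lhx1epiCKO replicate 3. Fn1 and Snai1 made up the 2 of 16 probes without overlap in the lower direction there, against 7.37% of all kept probes.

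The anterior genotype comparison asks what loss of Lhx1 from the epiblast does to the region that forms the head. None of the 16 probes was called with limma, against 0.0704% of all kept probes, 0.0235% higher and 0.0469% lower, that is 4 and 8 probes. Lhx1 itself was not called there, at -1.41 ± 0.32 (adjusted p = 0.344), nor in posterior regions, at -0.82 ± 0.32 (adjusted p = 0.504). The absence of a call between genotypes therefore does not show that a level was unchanged. At an unadjusted p under 0.05 there were 2 of 16 probes, Fn1 and Vim, and 329 of 17041 in all. The brightest Fn1 probe was 0.43 ± 0.19 higher in anterior Lhx1epiCKO than in anterior control regions, and its lowest Lhx1epiCKO value, 10.64, lay above the highest control value, 10.52. That difference had an unadjusted p of 0.0373 and an adjusted p of 1.00. With array weights it was 0.39 and passed (adjusted p = 0.0438), the only setting in which any of the 16 probes was called in this comparison. Under array weights 246 of 17041 probes were called, against 12 without them. The weights leaned on 1 array per group: 5.78 for anterior Lhx1epiCKO replicate 1 and 4.76 for anterior control replicate 2. The other anterior arrays had weights of 0.81 to 1.72.

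Summed marker levels of several cell types lay apart in the same comparison, though few single markers were called. Of 8 neuroectoderm markers, 6 were kept. The summed level of 6 neuroectoderm markers was 5327 to 5770 on anterior control and 2500 to 2913 on anterior Lhx1epiCKO arrays, with 6 of 6 below 0 and 1 called. That of 7 definitive endoderm markers was 8705 to 9207 and 5305 to 6355, with 0 called. For 5 paraxial mesoderm markers it was 916 to 1215 and 1304 to 1453, with 5 of 5 above 0 and 0 called. Of 5 node and notochord markers, 1 was called lower and 1 lay above 0. Of 5 kept markers of extraembryonic mesoderm and allantois, 5 lay above 0 and 0 were called. For 8 kept markers of blood and endothelium the summed level was 1197 to 1327 and 1602 to 1801, with 6 of 8 above 0 and 0 called. That of 9 streak markers overlapped, at 2976 to 3757 and 3379 to 6608. The part of these cell types in the Fn1 and Vim values was not tested.

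The other 3 Fn1 probes were dimmer. Probe ILMN_2588227 read 7.25, 7.34 and 7.41 in anterior control regions and 7.56, 7.48 and 7.50 in anterior Lhx1epiCKO regions, a difference of 0.18 ± 0.11 without overlap. With the brightest probe it made 2 of 16 probes whose groups did not overlap in the higher direction, against 5.76% of all kept probes, and 0 of 16 did so in the lower direction, against 6.48%. Both are probes of 1 gene and are not independent. Probes ILMN_2646618 and ILMN_1260125 differed by 0.29 ± 0.26 and 0.14 ± 0.15 in the same direction, with overlap.

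Fn1 probes also disagreed on the regions. Between anterior and posterior control regions the 3 dimmer probes differed by -0.33, 0.00 and -0.28, and none passed. With the mean of all 4 probes, the regional Fn1 difference in control embryos was -0.37 (adjusted p = 0.220). In posterior regions the genotypes differed by 0.10 for the brightest probe (interval -0.30 to 0.50), and by -0.20 without both posterior control replicate 2 and posterior Lhx1epiCKO replicate 3.

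Vimentin is the intermediate filament protein of mesenchymal cells. The single Vim probe, ILMN_2451022, read 9.90, 9.88 and 10.05 in anterior control regions. Posterior control regions read 10.62, 10.48 and 10.57. Although no value overlapped, the difference of -0.61 ± 0.17 did not pass in the fit of all 12 arrays (adjusted p = 0.0881). It passed with array weights (-0.65, adjusted p = 0.0134), with only the 6 control arrays in the fit (adjusted p = 0.00338), and without posterior Lhx1epiCKO replicate 1 or 3 (adjusted p = 0.0333 and 0.0316). These were 4 of 24 alternatives, in which 1013, 737, 546 and 906 of all kept probes were called, against 513. Without posterior control replicate 2 the adjusted p was 0.168, and without both doubted arrays 0.0620.

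Among Lhx1epiCKO arrays Vim was more spread. Anterior regions read 10.30, 10.65 and 10.02, and posterior regions 10.37, 10.98 and 10.89. These ranges overlap, and the regional difference was -0.42 ± 0.17 (adjusted p = 0.340). Between genotypes Vim differed by 0.38 ± 0.17 in anterior regions (interval 0.01 to 0.75, adjusted p = 1.00) and by 0.19 in posterior regions (interval -0.18 to 0.56). The posterior value was 0.11 without posterior Lhx1epiCKO replicate 3 and 0.08 without posterior control replicate 2 as well. Anterior Lhx1epiCKO replicate 2, the array with the highest anterior Vim value, also had the highest anterior value of the brightest Fn1 probe, 10.99.

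Extraembryonic mesoderm and allantois, mesenchyme of the posterior pole, could be part of the dissected regions. For the 5 kept of 6 markers, the summed level was 2967 to 3322 on anterior control arrays, 3584 to 3904 on anterior Lhx1epiCKO arrays, 4678 to 5915 on posterior control arrays and 4441 to 5894 on posterior Lhx1epiCKO arrays. Tbx4, an allantois gene, was not above background on anterior control arrays. Of the 5, 2 were called lower in anterior regions in each genotype. Their part in the Vim and Fn1 values was not tested.

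Twist1 encodes a basic helix-loop-helix factor of head and other mesenchyme. Its probe, ILMN_1236188, read 8.65, 8.49 and 8.69 in anterior control regions and 8.66, 8.44 and 8.58 in anterior Lhx1epiCKO regions. Posterior control regions read 8.26, 8.55 and 8.45, and posterior Lhx1epiCKO regions 8.04, 8.37 and 7.23. All anterior Lhx1epiCKO values lay above all posterior ones, and the lowest value of the 12 arrays was on posterior Lhx1epiCKO replicate 3.

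The regional Twist1 difference in Lhx1epiCKO embryos was 0.68 ± 0.22, opposite in sign to Snai1, and did not pass (adjusted p = 0.210). It was 0.35 without replicate 3 of the posterior Lhx1epiCKO arrays (adjusted p = 0.229), and 0.93 without replicate 2, where it passed (adjusted p = 0.0477). Twist1 and Cldn6 were the 2 of 16 probes without overlap in the higher direction, against 10.6% of all kept probes. In control embryos the difference was 0.19, with overlap (interval -0.28 to 0.66).

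In the posterior genotype comparison no kept probe was called with limma, which is 0% of all 17041 in each direction, and 0 of the 16. At an unadjusted p under 0.05 there were 1643 of 17041 probes, and 1 of the 16, Twist1. Twist1 was 0.54 ± 0.22 lower in posterior Lhx1epiCKO regions (adjusted p = 0.506), but 0.21 lower without posterior Lhx1epiCKO replicate 3. None of the 16 probes had groups that did not overlap there, against 4.65% of all kept probes in the higher and 4.68% in the lower direction.

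Zeb2 encodes a zinc-finger repressor that binds the same box as SNAI1. Only 1 of its 3 probes was kept, and the other 2 were above background on no array. The kept probe, ILMN_1232121, ranged from 8.14 to 8.65 over the 12 arrays, and all 4 groups overlapped. Regional differences were -0.06 in control and 0.13 in Lhx1epiCKO embryos, and genotype differences were -0.05 in anterior and -0.24 in posterior regions, the lowest adjusted p being 0.571.

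Cdh1 encodes E-cadherin, the adhesion protein that SNAI1 represses. Its probe, ILMN_2628629, read 10.10, 10.04 and 9.87 in anterior control regions and 10.10, 9.64 and 9.93 in posterior control regions. In Lhx1epiCKO embryos it read 9.92, 9.68 and 9.95 in anterior and 9.90, 10.14 and 10.04 in posterior regions. The groups overlapped in all 4 comparisons. Snai1 was higher in posterior regions, but Cdh1 differed between control regions by only 0.11, with an interval from -0.18 to 0.39, and by -0.18 between Lhx1epiCKO regions, with an interval from -0.46 to 0.11. Both intervals include 0.

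Claudin 6 is a tight junction protein of early epithelia, and its probe read between 12.55 and 13.35 over the 12 arrays. Anterior Lhx1epiCKO regions read 13.15, 13.17 and 13.17 for Cldn6 (ILMN_2941790), and posterior Lhx1epiCKO regions 13.11, 12.55 and 12.92. The groups did not overlap, and the difference of 0.31 ± 0.14 did not pass (adjusted p = 0.384). Control regions overlapped, at 13.24, 13.16 and 13.35 in anterior and 13.22, 13.11 and 12.90 in posterior regions, with a difference of 0.17 ± 0.14.

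Epcam, which encodes an epithelial adhesion glycoprotein, was measured at the edge of detection. Its probe, ILMN_1240539, read 6.57 to 6.96 and was above background on 7 of the 12 arrays: 3 anterior and 1 posterior control arrays, and 2 anterior and 1 posterior Lhx1epiCKO arrays. The regional differences were 0.19 in control and 0.09 in Lhx1epiCKO embryos and did not pass (adjusted p = 0.495 and 0.740). At this signal a difference between the groups could not be resolved.

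Visceral endoderm markers were high in every group. For the 10 kept of 11 markers, the summed level was 45265 to 51661 in anterior and 49650 to 54196 in posterior control arrays, and 48634 to 49550 in anterior and 25726 to 50457 in posterior Lhx1epiCKO arrays. None of the 10 was called in any comparison, and Apoc2 was not kept. On the array with 25726, posterior Lhx1epiCKO replicate 3, Cdh1 read 10.04 and Cldn6 12.92, both inside the range of the other posterior Lhx1epiCKO arrays. Without that array the regional Cldn6 difference in Lhx1epiCKO embryos was 0.34. This is a single array that stood apart in many other probes as well. The part of visceral endoderm in the Cdh1 and Cldn6 values was not tested.

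N-cadherin and cadherin 11 replace or accompany E-cadherin in mesenchyme. Cdh2 had 4 probes, 3 of them without a symbol in the platform annotation and named by the deposited table alone. Its brightest probe, ILMN_2764136, read 7.10, 7.28 and 7.07 in anterior control and 7.14, 7.44 and 7.58 in posterior control regions. In Lhx1epiCKO embryos it read 6.89, 6.99 and 7.14 in anterior and 7.21, 6.98 and 7.39 in posterior regions. Anterior and posterior ranges overlapped in both genotypes, with differences of -0.23 ± 0.14 and -0.19 ± 0.14.

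The other 2 kept Cdh2 probes did not pass in either regional comparison, the lowest adjusted p being 0.487. One differed by -0.10 in control and -0.25 in Lhx1epiCKO embryos, and the dimmer, ILMN_2605504, was above background on 3 of the 12 arrays and on none of the anterior control arrays, so it gives no regional direction in control embryos. The fourth Cdh2 probe was above background on no array. Cdh11 had 1 kept probe of 3, above background on 5 arrays, none of them posterior Lhx1epiCKO, and between 6.58 and 7.07 throughout. Its differences, with an adjusted p over 0.05 in each of the 4 comparisons of groups, give no direction where that group takes part. The 2 probes that were not kept were above background on 2 arrays and on 1 array.

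**Figure D3:**
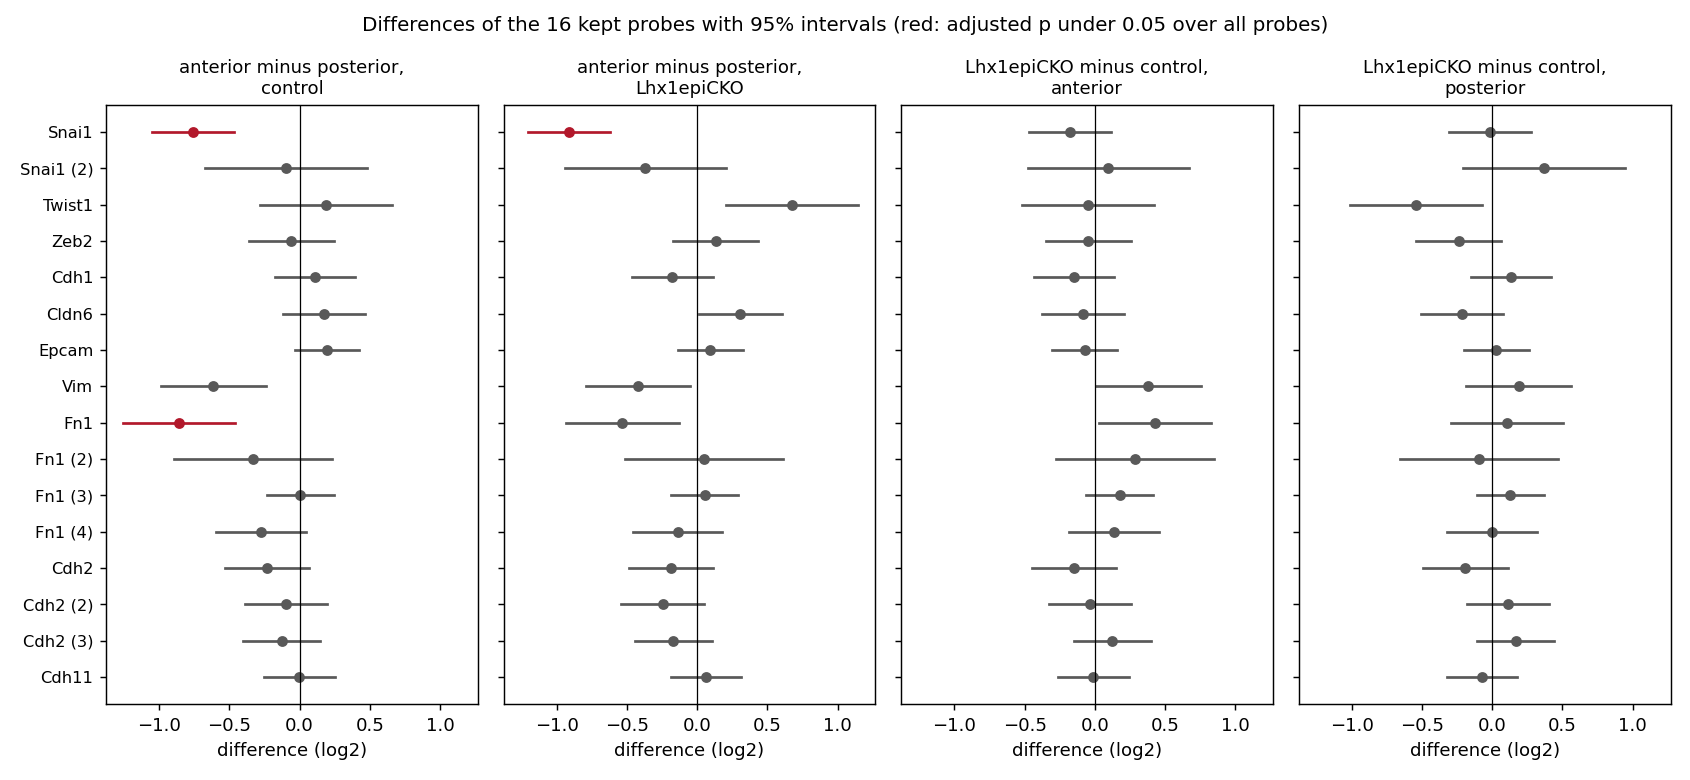
Log2 differences (horizontal axis) of the 16 kept probes (vertical axis; numbers in brackets mark dimmer probes of a gene) in 4 comparisons of groups, with 95% intervals. Red marks the calls, Snai1 in both regional comparisons and Fn1 in control embryos; most other intervals include 0, and no probe was called between genotypes.

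The difference of the genotype differences between the regions was tested for all 16 probes, and 0 were called with limma, as were 0% of all 17041. At an unadjusted p under 0.05 there were 0 of the 16 and 581 of all. The largest value was that of Twist1, at 0.49 ± 0.31, which was 0.17 without posterior Lhx1epiCKO replicate 3. For the brightest Fn1 probe it was 0.33 ± 0.26, and without that array 0.52 (adjusted p = 0.999), above that of Twist1. Without both doubted arrays it was 0.63 (adjusted p = 0.854). The regional comparisons share arrays with the genotype comparisons, so their values are set side by side and not counted as separate evidence.

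Other genes of the transition were read from 7 lists, in which 128 distinct genes besides the 10 had a kept probe. In control embryos 10 of the 128 were called higher in anterior regions (7.81%) and 12 lower (9.38%), against 1.36% and 1.65% of all kept probes. In Lhx1epiCKO embryos 3 were higher (2.34%) and 9 lower (7.03%), against 0.417% and 0.851%. The lists were chosen with earlier results of these data known, so the larger shares are a description and not a test. Each list gene was also read by its brightest kept probe, while the shares of all kept probes include dimmer probes of a gene. Between genotypes, and in the test of the difference of those effects, 0 of the 128 were called.

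Of 24 kept genes for signals and regulators that drive the transition at the streak, 9 were lower in anterior control regions, 0 were higher and 15 were not called, with a median of -0.28 against 0.02 over all probes. Wnt3a, a WNT ligand of the streak, was lower by 4.69 ± 0.33 (adjusted p = 4.94e-06) and Tbx6, a T-box factor of paraxial mesoderm, by 2.81 ± 0.20. Fgf8, the FGF ligand that streak cells need to move away, was lower by 1.85 ± 0.17. In Lhx1epiCKO embryos 7 of the 24 were lower, Wnt3a by 2.92 ± 0.33, Tbx6 by 1.85 ± 0.20 and Fgf8 by 1.31 ± 0.17. Fgf8, T and Tbx6 of this list are also streak markers above, and Bmp4 is also a marker of extraembryonic mesoderm and allantois. The counts of these lists therefore share genes and are not separate evidence.

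None of these signal genes passed between genotypes in anterior regions. Tbx6 was 1.21 ± 0.20 higher in anterior Lhx1epiCKO regions (adjusted p = 0.0596), Wnt3a 1.80 ± 0.33 higher (adjusted p = 0.114) and the WNT feedback gene Axin2 0.58 ± 0.15 higher (adjusted p = 0.547). These are the 3 genes of smallest p in the list. Of the 24, 16 lay above 0 and 8 below, with a median of 0.03.

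Among 16 kept transcription factor genes of the transition, 4 were called higher in anterior control regions, 1 was called lower, in the direction of Snai1, and 11 were not called. Snai2, the close relative of Snai1, read 8.19, 7.78 and 8.29 in anterior control regions and 7.42, 7.19 and 7.23 in posterior control regions. Lhx1epiCKO embryos read 8.06, 7.94 and 7.76 in anterior regions and no higher than 7.16 in posterior regions. Neither pair of groups overlapped, and Snai2 was higher in anterior regions by 0.81 ± 0.14 in control (adjusted p = 0.00470) and by 0.83 ± 0.14 in Lhx1epiCKO embryos (adjusted p = 0.00682), the reverse of the brighter Snai1 probe. Twist2, the relative of Twist1, was lower in anterior control regions by 0.96 ± 0.15 (adjusted p = 0.00327), and in Lhx1epiCKO embryos the difference was -0.49 and did not pass. Sox9 and Id2 were also called higher, by 0.89 and 0.71, and are named after their values were seen. In Lhx1epiCKO embryos 2 were higher, Snai2 and Foxc2, the latter a forkhead factor of mesoderm, by 0.62 ± 0.10.

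In the epithelial lists, most genes called in control embryos were higher in anterior regions. Among 28 kept junction and polarity genes, 3 were called higher and 0 lower: the claudin genes Cldn4 (0.84 ± 0.16) and Cldn3 and the tight junction gene Marveld3 (0.63 ± 0.13). Cldn3 read 7.22, 7.55 and 7.57 in anterior control regions and was not well above background on any posterior array, so its level was at least 1.52-fold higher in anterior control regions (adjusted p = 0.0126), a bound that takes the dimmest detected signal of each posterior array as its level there. In Lhx1epiCKO embryos 0 of the 28 were called, with Cldn3 at least 1.22-fold higher (adjusted p = 0.0937). Among 17 epithelial regulators and keratins, 2 were higher in anterior control regions, Rab25 (0.74 ± 0.17) and Elf3 (0.47 ± 0.11), and 1 lower, Klf5, a Krüppel-like factor (-1.20 ± 0.19). Klf5 was lower in anterior Lhx1epiCKO regions as well, by 1.19 ± 0.19. Markers of definitive endoderm, itself an epithelium, had the same direction in control embryos: 3 of 7 were called higher in anterior regions, with summed levels of 8705 to 9207 in anterior and 4034 to 5022 in posterior regions. Of 6 kept markers of neuroectoderm, also an epithelium, 4 were called higher, with summed levels of 5327 to 5770 in anterior and 1000 to 1454 in posterior control regions. Their part in the epithelial lists was not tested.

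Calls among matrix and adhesion genes stand against regional calls of 3.01% of all kept probes in control and 1.27% in Lhx1epiCKO embryos. In lists this small, the counts do not show that such genes were called more or less often than others. Among 22 kept mesenchyme and matrix genes, Tgfbi, which encodes a secreted matrix protein, was called higher in anterior regions in both genotypes (0.97 ± 0.16 and 0.85 ± 0.16) and 0 were lower. Of 11 basement membrane genes 0 were called in any comparison. Of 11 other cadherin genes, the protocadherin gene Pcdh19 was lower in anterior regions in both genotypes, by 1.22 ± 0.13 and 0.70 ± 0.13, and no other was called. Fn1, lower in anterior control regions, had the opposite direction to Tgfbi.

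**Figure D4:**
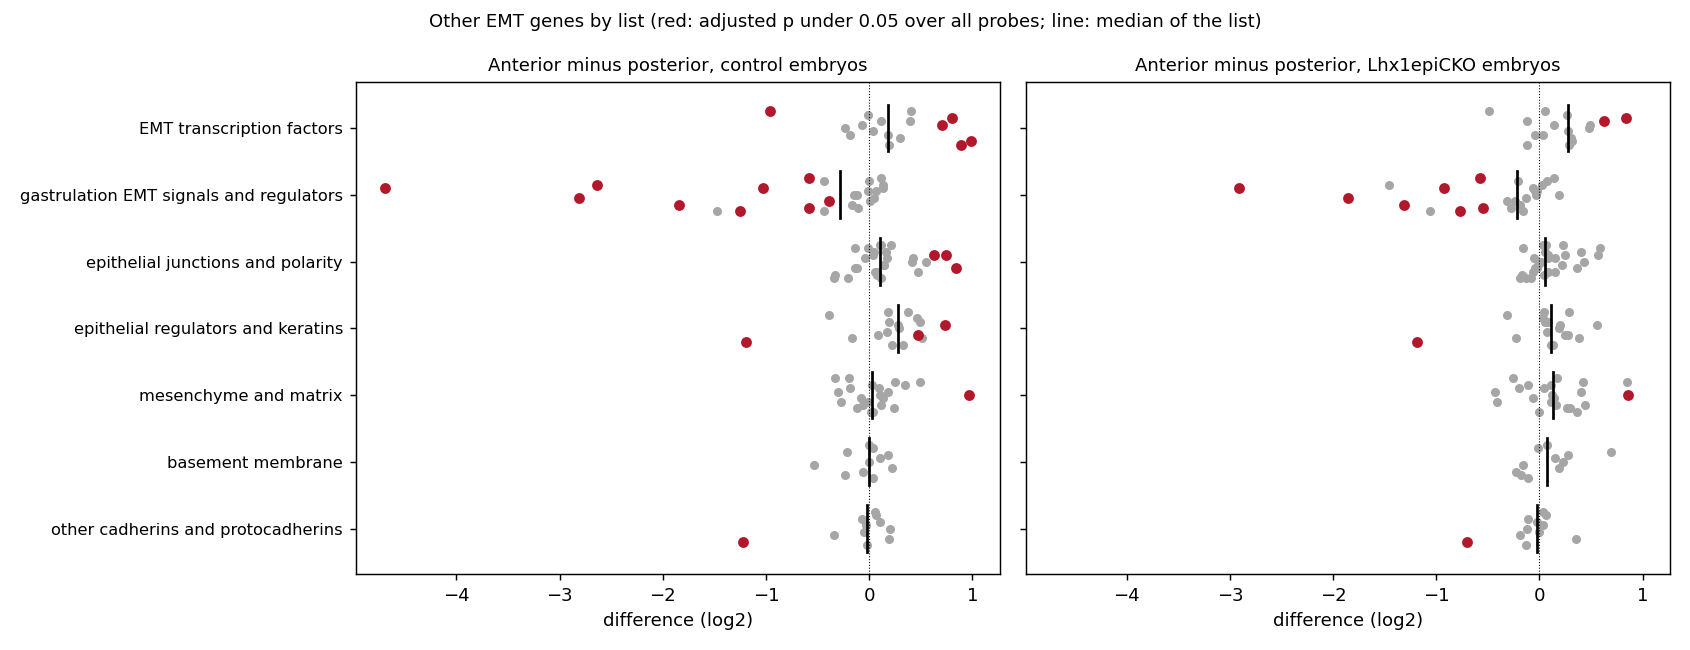
Anterior minus posterior log2 differences (horizontal axis) of the genes of 7 lists (vertical axis), each by its brightest kept probe, in control embryos at the left and Lhx1epiCKO embryos at the right. Red marks genes called over all kept probes and black lines are list medians; called signal genes all lie below 0, while the transcription factors called in control embryos lie on both sides.

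Genes with the profile over the 12 arrays most like that of a member were named by Pearson's correlation, as a description. The 12 arrays share the regional and genotype groups, and correlations within groups were not computed between a member and the genes named here. For Snai1 they were Ngfr, Cbr3 and Gabarapl1 (r = 0.97 for each). For Vim they were Foxf1 and Plscr1 (r = 0.97 for each) and Mocs1 (r = 0.93), and for the brightest Fn1 probe Ets1 (r = 0.96), Ino80c (r = 0.92) and Dll1 (r = 0.91). Twist1 was most like Ptges3 (r = 0.98), a profile in which its 1 low array weighs heavily. For Cdh1, which did not separate the groups, the highest was Hras (r = 0.82).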

How the data were processed

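Per the labels' protocols, total RNA came from pools of 5 dissected anterior or posterior embryo regions, with 3 biological replicates per group. Whether regions with the same replicate number came from the same embryos is not stated. The deposited table holds log2 expression values normalized by the authors and a detection p-value per probe and array. GenomeStudio and limma are named in the submitters' processing notes; their normalization method was not given in the sources used here. The series' value table holds the same deposited log2 values within 5.0e-09.

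A limma model (3.58.1, R 4.3.3) of the 4 group means, without covariates, took all 12 arrays and the probes with detection p under 0.05 on at least 3 arrays (17041). The fit had 8 residual and 4.87 prior degrees of freedom. Calls needed a two-sided Benjamini-Hochberg adjusted p under 0.05. The fit was also run on simulated data with independent errors, equally spread on all arrays, and a shift added to 1 group. Such data hold no array that stands apart, so they do not test the effect of the doubted arrays. No level of 1 probe was compared with that of another. Replicate numbers were not used to pair the samples in the model.

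The genes and lists were chosen with earlier results of these data known. The genes named were every probe of the 10, Lhx1, up to 3 genes of smallest p per list and comparison, and 3 of highest correlation for a member. The values of 1 gene that this rule names are not reported here. Promoter sequences are RefSeq's (GRCm38.p6). The number of arrays limits precision.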

Additional observations from a re-analysis of the deposited data

How the results depend on the processing

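The count of called probes among the 16 was recomputed under up to 24 alternatives per comparison. In anterior against posterior control regions, 18 of 24 left it within 1.5 times of 2; leaving out 1 array gave 1 to 3, and the mean of a gene's probes gave 0. In Lhx1epiCKO embryos, 21 of 24 left it at 1; it was 0 with only the groups compared, 0 with the mean of a gene's probes, and 1 to 2 with 1 array left out. Between genotypes in anterior regions it was 1 with array weights, where calls over all probes rose from 12 to 246, and 0 in the other 22; in posterior regions and for the interaction it was 0 in all 23. Without both doubted posterior arrays the counts were 2, 1, 0, 0 and 0. The regional Snai1 call in control embryos held in 23 of 24 alternatives and the Fn1 call in 18.

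The replicate block changed no call and no count. Snai1 differed by -0.76 in control embryos (adjusted p = 0.00424, and 0.00705 with the block within genotype) and by -0.92 in Lhx1epiCKO embryos, and Fn1 by -0.86 in control embryos (adjusted p = 0.0203 and 0.0432). Same-numbered arrays of different groups correlated at -0.04 to 0.25 in their deviations from group means, and arrays with different numbers at -0.18 to 0.08. These values do not settle whether the numbers pair the samples.

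No called value changed direction, but values close to 0 did; the cause was not tested. In anterior against posterior control regions, leaving out 1 array gave Cdh1 from -0.02 to 0.21, Cdh11 from -0.12 to 0.12, Zeb2 from -0.17 to 0.03 and Fn1 probe ILMN_2588227 from -0.09 to 0.093. In Lhx1epiCKO embryos it gave Fn1 probe ILMN_2646618 from -0.16 to 0.24 and ILMN_2588227 from -0.0090 to 0.11. Between genotypes in anterior regions it gave Cdh11 from -0.060 to 0.016, Twist1 from -0.11 to 0.014 and Zeb2 from -0.13 to 0.035. In posterior regions it gave Snai1 from -0.17 to 0.072, Cdh11 from -0.20 to 0.047, Epcam from -0.05 to 0.10, and Fn1 from -0.094 to 0.26, with probe ILMN_2646618 from -0.28 to 0.10 and ILMN_1260125 from -0.093 to 0.14. For the difference of the genotype effects it gave Cdh2 from -0.062 to 0.17, Cdh11 from -0.058 to 0.18, Cldn6 from -0.018 to 0.26, and Fn1 probes ILMN_2588227 from -0.039 to 0.14 and ILMN_1260125 from -0.0078 to 0.23. Without both doubted arrays the sign turned for Cdh1 (-0.019), Cdh11 (0.12) and Fn1 probe ILMN_2588227 (-0.088) between control regions, ILMN_2646618 (-0.00052) between Lhx1epiCKO regions, Cdh11 (0.040) and Fn1 (-0.20) between posterior genotypes, and Cdh11 (-0.051) for the difference of effects. With array weights it turned for Cdh11 (0.0013) and ILMN_2588227 (-0.0041) between control regions, ILMN_2646618 (-0.040) between Lhx1epiCKO regions, Twist1 between anterior genotypes (0.070), Fn1 between posterior genotypes (-0.023) and Cdh2 for the difference of effects (-0.025). With the mean of a gene's probes it turned for Snai1 (0.17) and Cdh2 (0.029) between posterior genotypes and Cdh2 (-0.048) for the difference of effects, and with quantile normalization for Fn1 probe ILMN_1260125 (0.0012) between posterior genotypes.

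Epcam, Cdh11, the dimmer Snai1 probe and the 2 dimmer kept Cdh2 probes were above background on 3 to 8 of the 12 arrays, which limits what they can show.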
